A study of Mus musculus with 4 samples.

Results

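A set of 9 genes of the hyaluronan-based brain matrix were followed through single-cell RNA libraries of mouse frontal cortex and midbrain: Cd44, Has2, Hapln1, Bcan, Ncan, Vcan, Tnc, Tnr and Cspg5. They were chosen by name as genes present in both deposited feature tables, and all 9 were found, among 19602 features of the frontal cortex table and 19956 of the midbrain table. The study compared 2 genotypes at 6 to 9 months of age: transgenic mice of the strain labelled Hua-Syn(A53T), named for a mutant human alpha-synuclein, and wildtype littermates labelled C57BL/6. The promoter and cell types that drive the transgene are not given in the sources used here. Cells were dissociated with an enzyme kit in a protocol meant for glia and vessels, and the 2 regions are stated to come from the same group of 3 mice, although the mouse number label reads 3 for frontal cortex and 0 for midbrain. Each region and genotype was 1 library, so no value has a replicate check and no p-value is given. All intervals are 95% intervals that cover counting error only, and mice pooled in a library cannot be told apart.

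The brain matrix that these genes build lies between and around cells. Hyaluronan is a long sugar chain spun out at the cell surface by synthases such as the Has2 product. The lecticans brevican (Bcan), neurocan (Ncan) and versican (Vcan) are chondroitin sulfate proteoglycans that bind hyaluronan through a link domain, and the link protein encoded by Hapln1 locks the bond. Tenascin-C (Tnc) and tenascin-R (Tnr) cross-link the other ends of lecticans. Cspg5 encodes neuroglycan C, a membrane-bound brain chondroitin sulfate proteoglycan. CD44 is a cell-surface receptor for hyaluronan that is found on leukocytes and on reactive or fibrous astrocytes.

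By the GENCODE vM21 gene models (GRCm38, or mm10), all 9 are protein-coding genes, and the counts do not resolve exons. Cd44 spans chr2:102811141-102901665 on the minus strand and Has2 spans chr15:56665627-56694539 on the minus strand. Hapln1 lies at chr13:89539796-89611652 on the plus strand, next to Vcan at chr13:89655312-89742509 on the minus strand. Bcan lies at chr3:87987531-88000230 and Ncan at chr8:70093085-70120873, both on the minus strand. Tnc lies at chr4:63959785-64047015 on the minus strand, Tnr at chr1:159523769-159931729 on the plus strand and Cspg5 at chr9:110243783-110262576 on the plus strand.

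The promoters of the member with the largest genotype ratio and of a member with nearly equal levels in both genotypes are shown side by side, as the 250 bases upstream of the RefSeq start (build GRCm38.p6), read 5′ to 3′ on the gene's minus strand. The Cd44 window is chr2:102901666-102901915 and the Bcan window is chr3:88000357-88000606. Capitals mark matches to an NF-kB-type motif, written as GGG, any 5 bases and CC, on either strand.
Cd44: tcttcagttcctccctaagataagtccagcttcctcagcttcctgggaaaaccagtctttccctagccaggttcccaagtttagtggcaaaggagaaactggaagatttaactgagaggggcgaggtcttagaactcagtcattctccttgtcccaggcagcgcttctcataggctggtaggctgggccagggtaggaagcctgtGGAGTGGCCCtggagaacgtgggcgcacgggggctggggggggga
Bcan: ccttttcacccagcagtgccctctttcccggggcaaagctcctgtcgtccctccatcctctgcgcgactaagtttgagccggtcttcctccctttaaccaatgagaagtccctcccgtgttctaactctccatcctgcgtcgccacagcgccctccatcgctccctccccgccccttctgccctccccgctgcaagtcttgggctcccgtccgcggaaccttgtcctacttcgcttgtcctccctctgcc
The Cd44 window held 1 match, 45 to 36 bases upstream of the start, and the Bcan window held none. Of the 7 members with an entry, Vcan and Tnc also held a match, though Vcan had nearly equal levels in both genotypes and Tnc a negative ratio in astrocytes. The same motif was found in 45.8% of 32851 such windows, so a match is common. The AP-1 motif TGANTCA, the STAT motif TTCNNNGAA and the TATA box TATAAA, searched on both strands, had no match in either window. They were found in 6.75%, 7.02% and 12.4% of all windows. A match is a run of letters and not a shown binding site.

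The libraries held 3775 transgenic and 6239 wildtype cells in frontal cortex and 3995 and 7635 in midbrain. Library pairs shared between 3 and 15 cell barcodes. The cells that the authors labelled AC, here called astrocytes, numbered 868 transgenic and 1067 wildtype in frontal cortex and 1512 and 2644 in midbrain, with 6981554 to 16467288 UMIs (counted molecules) per library. AC cells held the highest level of 14 of 15 astrocyte markers in frontal cortex and 13 of 15 in midbrain. Transgenic frontal cortex astrocytes had a median of 9.68% mitochondrial UMIs against 5.27% in wildtype, and the midbrain medians were 7.07% and 6.54%. UMIs of each gene were summed over cells and scaled to CPM, the number per 1000000 UMIs of those cells.

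Most UMIs of Hapln1 and the lectican Bcan were read in astrocytes, a share that depends on level and on cell number. Astrocytes held between 95.5% and 97.8% of each library's Hapln1 UMIs and between 91.8% and 96.5% of its Bcan UMIs. Bcan stood at 1391 CPM in transgenic and 1526 CPM in wildtype frontal cortex astrocytes, and at 1410 and 1424 CPM in midbrain. These 4 levels lay close together, and after every cell was thinned to 3000 UMIs, 95.3% to 98.1% of astrocytes in each library held a Bcan UMI. By level, Bcan was not particular to astrocytes. The 13 transgenic and 71 wildtype midbrain imNeur cells, described below, held it at 1338 CPM (1115 to 1592) and 1189 CPM (1105 to 1279). Endothelial cells (EC), which are not expected to express Bcan, gave a measure of free RNA: 2.42% to 4.74% of thinned EC cells held a Bcan UMI, at median depths of 7221.5 to 8530 UMIs against 6320 to 7983 in astrocytes. Astrocytes also held 85.9% to 94.4% of the Ncan UMIs, a share that depends on both their level and their cell number. Their Ncan stood at 408 and 292 CPM in transgenic and wildtype frontal cortex and at 219 and 180 CPM in midbrain. Frontal cortex EC cells held Ncan at 4.93 and 1.37 CPM. Cspg5 was at 1765 and 1917 CPM in frontal cortex astrocytes and at 636 and 717 CPM in midbrain astrocytes.

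Vcan and Tnr had their highest levels outside astrocytes, in cells that carry markers of oligodendrocyte progenitors, the dividing precursors of myelin-forming cells. The label OPC did not mark these cells evenly. In frontal cortex it joined cluster 23, with summed fibroblast markers of 8388 and 7621 CPM, and cluster 27, with summed oligodendrocyte progenitor markers of 8734 and 9262 CPM in transgenic and wildtype cells. Cluster 27 also held summed fibroblast markers of 2344 and 2592 CPM. In midbrain, 8 of 8 progenitor markers were highest in the cells labelled imNeur, and 7 of 8 fibroblast markers were highest in those labelled OPC. Cluster 27 (19 and 29 cells) held Tnr at 1776 CPM (1577 to 1994) in transgenic and 1906 CPM (1730 to 2095) in wildtype cells. The midbrain imNeur cells (13 and 71) held Tnr at 1517 CPM (1279 to 1786) and 1333 CPM (1243 to 1428). Every one of these cells held a Tnr UMI, while Tnr in astrocytes was between 2.47 and 3.29 CPM in the 4 libraries.

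Vcan followed the same cells, at 1363 and 1772 CPM in cluster 27 and 1633 and 1410 CPM in midbrain imNeur cells. It was also high in the frontal cortex imNeur cells, where 6 of 6 neuroblast markers were highest, at 385 CPM in transgenic and 404 CPM in wildtype cells. Midbrain mNeur cells held Vcan at 199 and 201 CPM, and astrocytes at 14.5 to 35.5 CPM. The same progenitor-marker cells held Cspg5 at 3232 and 3340 CPM in cluster 27 and 4193 and 3761 CPM in midbrain, and Bcan between 894 and 1338 CPM. They held Ncan at 315 and 405 CPM in cluster 27 and at 327 CPM (222 to 464) and 299 CPM (257 to 345) in midbrain, where wildtype astrocytes were at 180 CPM (174 to 187). Cd44 was at 0 UMIs in all of them. The fibroblast-marker cluster 23 held no Hapln1, Cd44, Has2 or Tnc UMI and at most 22.8 CPM of any other member. Values for the whole OPC label therefore mix both kinds of cell: Tnr was 981 and 601 CPM there, while cluster 27 made up 19 of 35 transgenic and 29 of 79 wildtype cells.

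Smaller sources were seen for Tnr. Smooth muscle cells (SMC) held it at 36.3 and 20.8 CPM in frontal cortex and 11.2 and 20.7 CPM in midbrain, and midbrain EPC cells at 43.7 and 55.5 CPM. Frontal cortex mNeur cells, with 9 of 12 neuronal markers highest, held 89.4 CPM in transgenic and 39.2 CPM in wildtype. Has2 was rare everywhere, with 4 to 19 UMIs in a whole library. Tnc was read mainly in astrocytes, which held 51 of 54 UMIs in transgenic and 130 of 139 in wildtype frontal cortex, and 33 of 39 and 76 of 95 in midbrain.

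Across the labels, the 5 genes most like Bcan were Etv4, Gpc5, Gpr37l1, Agpat5 and Hepacam, with Pearson's r from 0.909 to 0.939 on log2(CPM + 1) over 38 combinations of label and library with at least 50 cells. Units of 1 library share its depth and its free RNA, and r is given as a description.

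**Figure D1:**
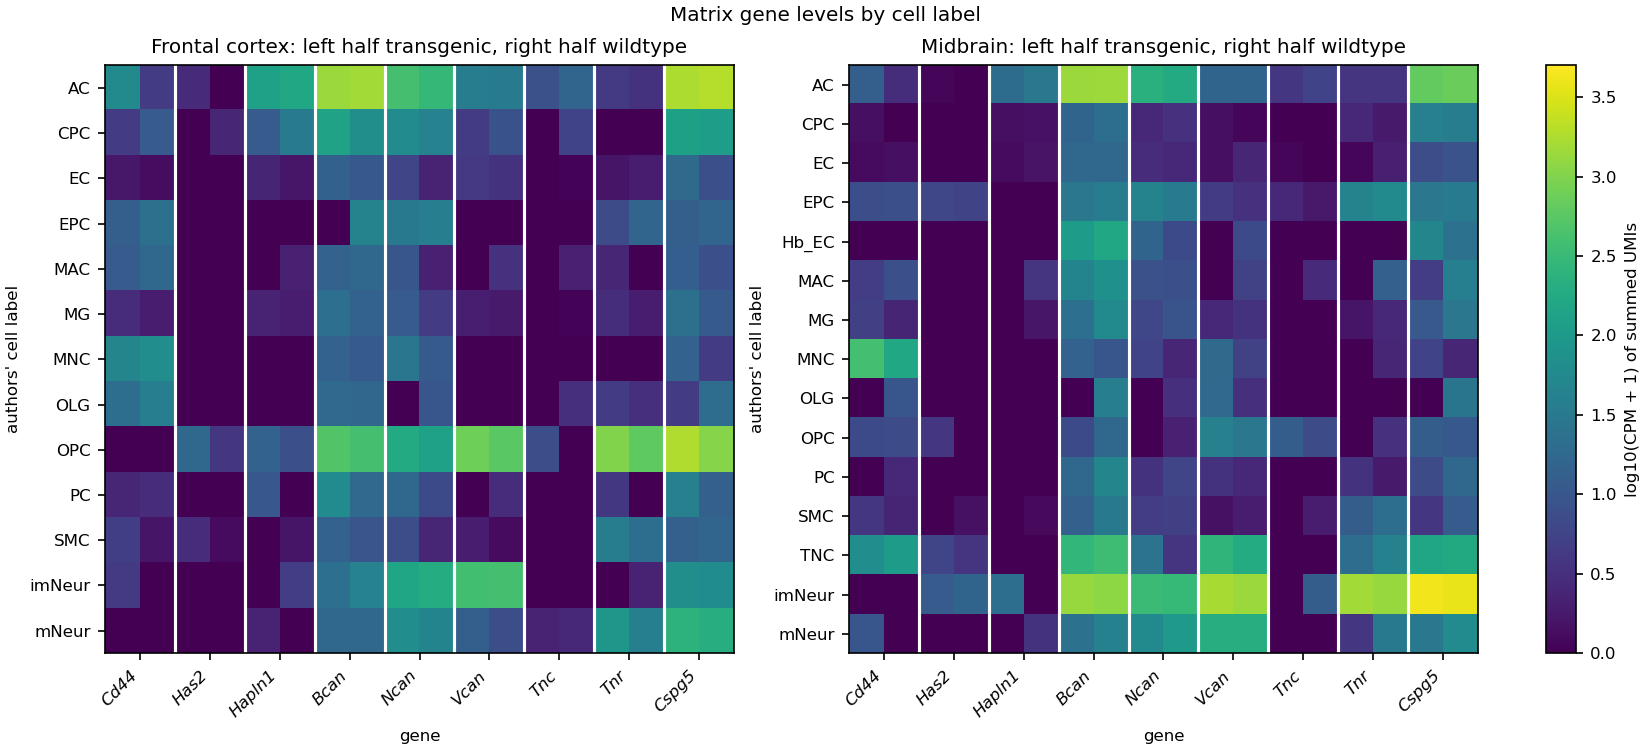
Summed level of each gene by the authors' cell label, as log10(CPM + 1), with frontal cortex on the left and midbrain on the right, and the transgenic library left of the wildtype library within each gene. Bcan is bright in AC in all 4 libraries and also in midbrain imNeur (1338 and 1189 CPM), where Cspg5 is brighter than in AC. Vcan and Tnr are bright in OPC in frontal cortex and in imNeur in midbrain.

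Cd44 had no single home across the libraries. In wildtype midbrain its highest level among labels of at least 50 cells was 157 CPM (128 to 189) in the cells labelled MNC, which held the highest level of 10 of 10 markers of blood leukocytes. The 33 transgenic MNC cells of midbrain were at 390.5 CPM (313 to 482), with 18 of the 87 UMIs in 1 cell. The few MNC cells of frontal cortex, 22 and 46, were at 47.7 CPM (19.2 to 98.2) and 64.8 CPM (39.0 to 101). Midbrain TNC cells (25 and 43) held 64.9 and 105 CPM. In wildtype frontal cortex, among labels of at least 50 cells, the border macrophage label MAC led with 16.4 CPM (8.96 to 27.5), overlapping with CPC cells at 10.7 CPM. Wildtype astrocytes were low, at 3.53 CPM in frontal cortex and 2.06 CPM in midbrain.

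The largest genotype ratio among the members was that of Cd44 in frontal cortex astrocytes. The transgenic library held 408 UMIs and the wildtype library 30, or 58.4 CPM (52.9 to 64.4) against 3.53 CPM (2.38 to 5.04). The log2 ratio was 4.05 (3.51 to 4.64), which is 16.5-fold. A gene was counted as higher or lower where the log2 ratio was at least 0.58 in size, about 1.5 times, with at least 20 CPM in 1 of both libraries. By that rule 1 of the 9 members was higher (Cd44) and 0 were lower, with 6 at 20 CPM. Over all genes at 20 CPM, 3.69% were higher and 3.05% lower. In thinned cells 8.50% (6.45 to 10.95) of transgenic and 0.577% (0.188 to 1.34) of wildtype astrocytes held a Cd44 UMI, against 15.0% and 2.62% without thinning. Microglia (MG) of the same libraries gave 0.719% and 0.332% after thinning, at median depths of 7404 and 7373 UMIs against 6638.5 and 7983 in astrocytes, so the wildtype astrocyte share overlapped with that of microglia.

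Cd44 was unevenly spread among the transgenic frontal cortex astrocytes. Cluster 11, with 116 of the 868 cells, held 302 of the 408 UMIs (74.0%). The 10 cells with the most UMIs held 155 of the 408, and the top cell held 36. Cd44 is itself the 4th leading gene of cluster 11 against the other astrocytes, after Myoc, Timp1 and Ptx3, so its 155 CPM in transgenic and 10.9 CPM in wildtype cells there are a description of that cluster. In cluster 1, which holds most wildtype astrocytes and is not led by Cd44, the levels were 14.2 CPM (10.6 to 18.6) and 2.97 CPM (1.84 to 4.54), a log2 ratio of 2.26 (1.503 to 3.06). In the shallow cluster 4 they were 57.6 and 3.83 CPM, a log2 ratio of 3.91 (1.98 to 6.99) from 51 and 2 UMIs. In cluster 22, which shares the leading gene Nkx6-2 with a midbrain cluster, 2 and 1 UMIs were counted. Without cluster 11 the ratio over all other astrocytes was 2.80 (2.15 to 3.505), and this alternative was chosen after the data were seen. Among thinned transgenic cells, 44 of 54 with a Cd44 UMI also held Gfap, which encodes the filament protein GFAP and is raised in reactive astrocytes, against 256 of 581 without one, or 81.5% and 44.1%. In wildtype, 15.1% of the cells without Cd44 held Gfap.

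In midbrain astrocytes Cd44 was counted 141 times in the transgenic and 34 times in the wildtype library, or 12.2 CPM (10.3 to 14.4) and 2.06 CPM (1.43 to 2.89). The log2 ratio was 2.57 (2.02 to 3.15), but both levels lay under 20 CPM and Cd44 was not counted as higher. The UMIs sat in few cells: cluster 10 held 79 of the 141, in 16 of its 106 cells, and cluster 22 held 38, in 13 of its 61 cells. Cluster 10 stood at 69.8 CPM in transgenic and 1.79 CPM in wildtype cells, a log2 ratio of 5.29 (3.88 to 7.20) from 79 and 4 UMIs. Cd44 ranks 40th of 6746 among the genes that set cluster 10 apart, and this ratio is given as a description. Cluster 22 has Cd44 as its 2nd leading gene, at 406 and 7.19 CPM, and is not compared. Without these 2 clusters the midbrain ratio was 0.18 (-0.66 to 1.01). In thinned cells, 1.58% (0.955 to 2.46) of transgenic and 0.407% (0.186 to 0.772) of wildtype astrocytes held Cd44, and both overlapped with midbrain microglia at 1.04% and 0.620%. In wildtype midbrain, 18 of the 34 UMIs lay in 9 cells of the shallow cluster 4, with 7 in a single cell.

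Other cell types' markers moved along with genotype in these astrocytes, and their part in the Cd44 result was not tested. In frontal cortex, summed microglial markers were at 625 CPM in transgenic and 1246 CPM in wildtype astrocytes, endothelial markers at 245 and 616 CPM, and erythroid markers at 314 and 20.1 CPM. Oligodendrocyte progenitor markers, which mark cells high in Ncan, Vcan, Tnr and Cspg5, were at 168 and 97.2 CPM, and their part in the ratios of those genes was not tested. Of the 10 leukocyte markers that mark MNC, 5 were at 0 in each library, and their sum was 3.29 and 1.65 CPM. In midbrain, choroid plexus markers were at 1949 and 3525 CPM, progenitor markers at 285 and 233 CPM, erythroid markers at 260.5 and 47.0 CPM and leukocyte markers at 1.56 and 3.28 CPM. Limited to astrocytes under 5% mitochondrial UMIs (153 and 492 cells), the frontal cortex Cd44 ratio was 4.65, and in astrocytes with under 4 UMIs of other types' markers (138 and 153 cells) it was 3.51. The limit of 4 UMIs is an absolute count that shallow cells meet more easily. It was not scaled to depth, so it does not separate cells free of other types' RNA from shallow cells.

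**Figure D2:**
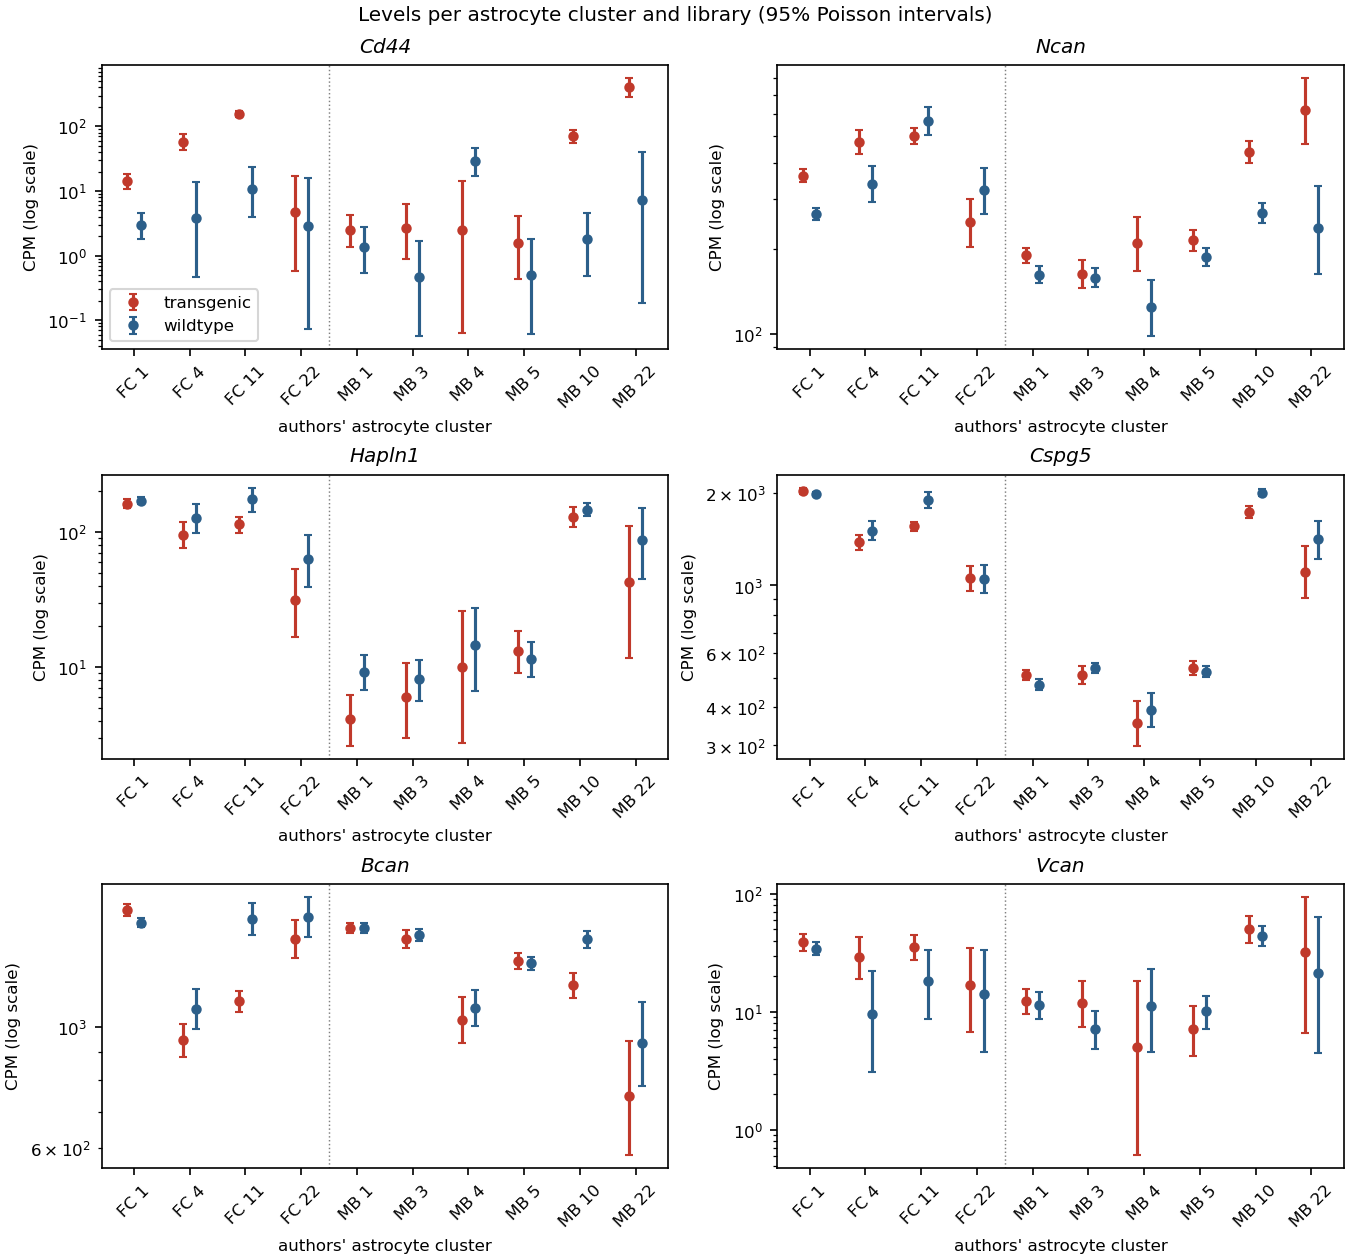
Level of 6 genes in each of the authors' astrocyte clusters (FC, frontal cortex; MB, midbrain), in CPM on a log scale with 95% Poisson intervals, for the transgenic and the wildtype library. Cd44 is highest in transgenic FC 11 (155 CPM) and MB 22 (406 CPM), and Cspg5 is above 1000 CPM in all FC clusters and in MB 10 and 22 but between 355 and 538 CPM in MB 1, 3, 4 and 5.

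The lecticans, the link protein and Cspg5 differed less between genotypes than Cd44. Ncan was nearest to the threshold in frontal cortex, with 2850 and 2477 UMIs and a log2 ratio of 0.49 (0.41 to 0.56). In midbrain its ratio was 0.28 (0.21 to 0.36). Over 12 alternatives the frontal cortex ratio ran from 0.09 to 0.86, on both sides of the threshold. Within clusters Ncan stood higher in transgenic cells of frontal cortex cluster 1 (362 and 265 CPM, log2 ratio 0.45) and of midbrain cluster 10 (440 and 268 CPM, 0.72). It was also higher, with intervals that leave out 0, in frontal cortex cluster 4 (0.49) and midbrain clusters 1 (0.23), 4 (0.75) and 5 (0.19). The largest Ncan ratio, 1.38 (0.74 to 2.05), was that of midbrain cluster 22, from 58 and 33 UMIs. In midbrain cluster 3 Ncan had a ratio of 0.05 (-0.15 to 0.25). In frontal cortex cluster 11 it was 499 CPM in transgenic and 566 CPM in wildtype cells (log2 ratio -0.18, -0.37 to 0.01), and in cluster 22 it was 247 and 321 CPM (-0.38, -0.77 to 0.02). Both of these intervals hold 0. Microglia, which are not expected to make neurocan, also held 10.4 CPM of Ncan in transgenic and 3.51 CPM in wildtype frontal cortex, a level far under that of astrocytes.

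Bcan had a log2 ratio of -0.13 (-0.17 to -0.10) in frontal cortex and -0.02 (-0.04 to 0.01) in midbrain. It was 1635 and 1552 CPM in frontal cortex cluster 1 and 1114 and 1575 CPM in cluster 11, with log2 ratios of 0.07 (0.03 to 0.12) and -0.50 (-0.61 to -0.38). Cspg5 had ratios of -0.12 (-0.15 to -0.08) and -0.17 (-0.21 to -0.13) in the 2 regions. Vcan had ratios of 0.20 (-0.06 to 0.45) and 0.02 (-0.27 to 0.31), and both intervals hold 0.

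Hapln1 stood lower in transgenic astrocytes of both regions, in the deposited libraries and in all 12 alternatives run for each region. In frontal cortex it was 132 CPM (123 to 140) against 163 CPM (154 to 172), a log2 ratio of -0.31 (-0.43 to -0.19). The genotypes were spread unevenly over the clusters: cluster 1 held 44.9% of transgenic and 73.2% of wildtype frontal cortex astrocytes, cluster 4 held 35.6% and 19.2%, and cluster 11 held 13.4% and 3.19%. Within cluster 1 Hapln1 was 161 CPM (149 to 175) and 170 CPM (160 to 180), a ratio of -0.08 (-0.22 to 0.07) whose interval holds 0. In midbrain it was 19.2 CPM (16.7 to 21.9) against 28.9 CPM (26.4 to 31.6), a ratio of -0.59 (-0.83 to -0.36). That made it the 1 member counted as lower in midbrain, of 4 at 20 CPM, where 0 were higher. Over all genes 0.608% were lower and 0.834% higher. The midbrain value sits at the threshold: without clusters 10 and 22 it was -0.51 (-0.94 to -0.08), and in thinned cells -0.35 (-0.76 to 0.05). Cluster 10, which held most midbrain Hapln1, made up 7.01% of transgenic and 10.7% of wildtype midbrain astrocytes. Within cluster 10 the levels were 129 and 146 CPM, and their ratio of -0.17 (-0.47 to 0.11) has an interval that holds 0. In frontal cortex cluster 11 the Hapln1 ratio was -0.61 (-0.97 to -0.25), with an interval that leaves out 0. The same held in midbrain cluster 1, at -1.16 (-1.94 to -0.41) from 23 and 48 UMIs. Intervals held 0 in frontal cortex cluster 4 (-0.42) and midbrain clusters 3 (-0.44) and 5 (0.18). They also did in frontal cortex cluster 22, at 31.2 CPM in transgenic and 62.5 CPM in wildtype cells. The part of cluster make-up in the lower Hapln1 was not tested.

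The tenascins and Has2 rest on few UMIs. Tnc was counted 51 times (7.30 CPM) in transgenic and 130 times (15.3 CPM) in wildtype frontal cortex astrocytes, a log2 ratio of -1.07 (-1.56 to -0.59) at levels under 20 CPM. In midbrain it was 33 and 76 UMIs, with a ratio of -0.69 (-1.32 to -0.08). The widest gap was in frontal cortex cluster 11, where 34 wildtype cells held 43 Tnc UMIs (78.3 CPM, 56.7 to 105) and 116 transgenic cells held 20 (10.3 CPM, 6.28 to 15.9). Tnr had 23 and 21 UMIs in frontal cortex and 30 and 45 in midbrain astrocytes, and both intervals of its ratio hold 0. Has2 was counted 12 times in transgenic and 0 times in wildtype frontal cortex astrocytes. With 3 UMIs over the group standing in for 0, this is 4.87-fold, a log2 ratio of 2.28. The counting interval of the log2 ratio starts at 1.76 and has no upper end. Of these 12 UMIs, 10 lay in 5 cells of cluster 11. In midbrain 2 and 0 UMIs were counted, and no ratio is given.

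**Figure D3:**
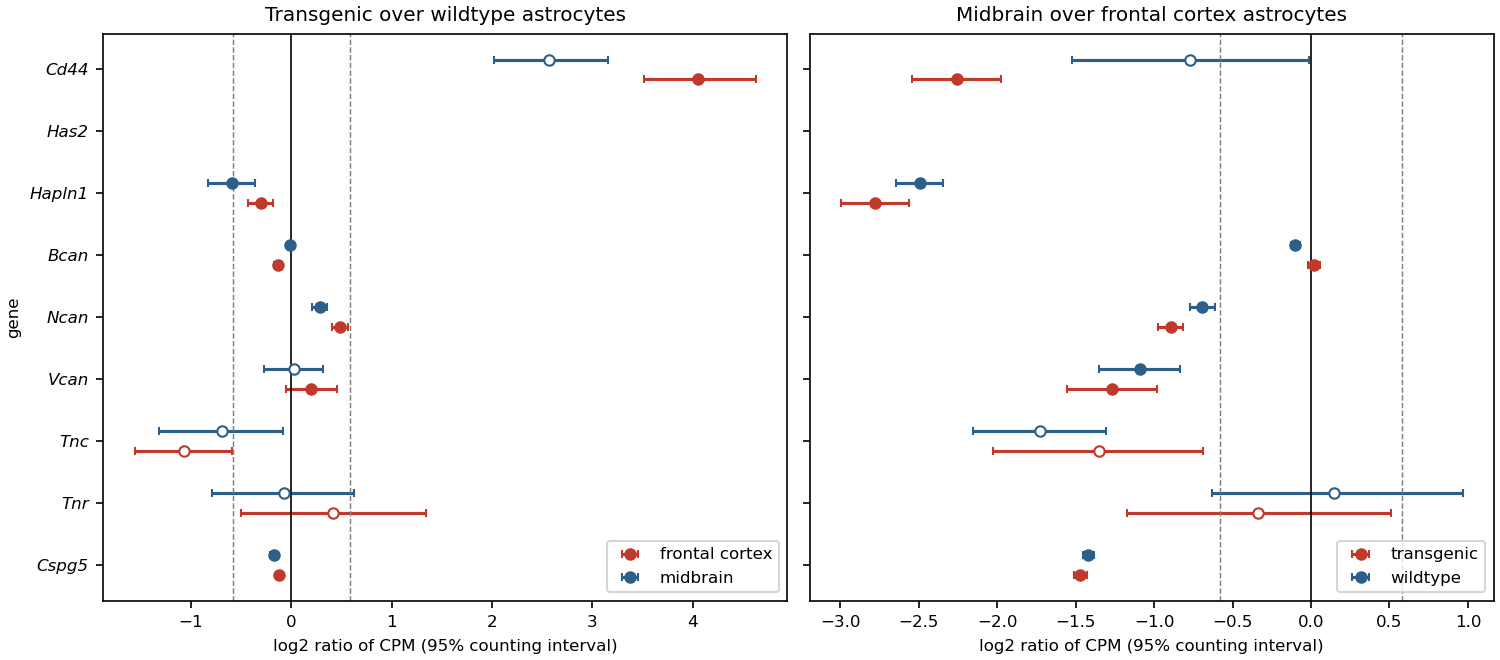
Log2 ratios of CPM in astrocytes with 95% counting intervals: transgenic over wildtype on the left (red, frontal cortex; blue, midbrain) and midbrain over frontal cortex on the right (red, transgenic; blue, wildtype). Filled points reach 20 CPM in at least 1 library, open points do not, Has2 is not drawn, and dashed lines mark 0.58 in either direction. Cd44 lies far to the right in the genotype comparison (4.05 and 2.57), and Hapln1, Ncan, Vcan and Cspg5 lie to the left in both genotypes in the region comparison. Cd44 and Tnc also lie to the left there, Tnc as open points.

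More of the members passed the threshold between regions than between genotypes, by the same rule over the 19040 features that both tables share. In wildtype, 4 members were lower in midbrain than in frontal cortex astrocytes and 0 were higher, of 5 at 20 CPM, where 7.16% of all genes were lower and 6.59% higher. In transgenic, 5 were lower and 0 higher, of 6 at 20 CPM, where 8.78% of all genes were lower and 8.58% higher. Regions were processed as separate libraries and deposited as separate tables, so region and library cannot be told apart. The genotype comparisons share these 4 libraries.

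Hapln1 had the largest difference between regions in wildtype, at 28.9 CPM in midbrain and 163 CPM in frontal cortex, a log2 ratio of -2.49 (-2.65 to -2.34). In transgenic it was -2.78 (-3.00 to -2.56). Among members at 20 CPM, Cspg5 followed at 717 and 1917 CPM in wildtype, a ratio of -1.42 (-1.45 to -1.38). In transgenic the Cspg5 ratio was -1.47 (-1.51 to -1.43). Tnc, under 20 CPM, had a wildtype ratio of -1.73 (-2.16 to -1.31) from 76 and 130 UMIs. Its transgenic ratio was -1.35 (-2.03 to -0.69). Over 12 alternatives the wildtype Tnc ratio ran from -2.47 to 1.06. Vcan was 14.5 and 31.0 CPM, with ratios of -1.09 (-1.35 to -0.83) and -1.27 (-1.56 to -0.98). Ncan had ratios of -0.69 (-0.77 to -0.61) and -0.90 (-0.97 to -0.82). Bcan differed little, with ratios of -0.10 (-0.13 to -0.07) in wildtype and 0.02 (-0.02 to 0.06) in transgenic. Cd44 was the member counted as lower in transgenic alone, with a ratio of -2.26 (-2.54 to -1.98), and at 12.2 CPM against 58.4 CPM. In wildtype both regions were under 20 CPM for Cd44 and its ratio was -0.77 (-1.53 to -0.02). With every astrocyte cluster weighted alike the Cd44 ratio reversed, to 0.48 in transgenic and 0.38 in wildtype.

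These regional differences were not shared by every midbrain cluster. Midbrain cluster 10, led by the forebrain patterning genes Lhx2, Emx2 and Fezf2, held Hapln1 at 129 and 146 CPM, Cspg5 at 1742 and 2013 CPM and Vcan at 50.4 and 44.2 CPM. Hapln1 ranks 12th among the genes that set cluster 10 apart, so its level there is a description. These values lie near those of frontal cortex cluster 1, at 161 and 170, 2042 and 1991, and 39.1 and 34.4 CPM. Midbrain clusters 1, 3 and 5 held Hapln1 between 4.15 and 13.1 CPM and Cspg5 between 474 and 538 CPM. Without midbrain clusters 10 and 22 the wildtype ratio was -4.06 for Hapln1, -1.93 for Cspg5, -1.67 for Vcan and -0.81 for Ncan. The transgenic Cd44 ratio without them was -4.65, and with frontal cortex cluster 11 left out in place of them it was -0.78 (-1.16 to -0.40).

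Over 20 combinations of astrocyte cluster and library, the 5 genes most like Cd44 were Tnfrsf12a, Met, Nek6, Cnn3 and Wdr1, with Pearson's r from 0.904 to 0.949 on log2(CPM + 1), given as a description. Tnfrsf12a encodes the receptor of the cytokine TWEAK and Met the receptor of hepatocyte growth factor. Among the members, r with Cd44 was 0.70 for Ncan and -0.63 for Bcan.

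Genes that make, bind and cut this matrix were read from lists of 104 further genes, of which 101 were in the frontal cortex table and 41 reached 20 CPM in its astrocytes. Of those 41, 6 were higher and 2 lower in transgenic astrocytes, where 3.69% of all genes were higher and 3.05% lower. The lists were chosen with earlier results of these data known, so this count is a description and not a result about the pathway. The median log2 ratio of the 74 with at least 20 UMIs was 0.06 against 0.01 over all 13062 such genes. Of 3 hyaluronan receptors and binding proteins at 20 CPM, 2 were higher: Ptx3, a pentraxin that takes part in cross-linking hyaluronan, at 36.1 and 1.41 CPM (log2 ratio 4.68, 3.85 to 5.65), and Itih3, a heavy chain that is bound to hyaluronan, at 210 and 122 CPM (0.78). Ptx3 is also a leading gene of frontal cortex cluster 11 and midbrain cluster 22. Of the 2 lectican-cleaving proteases at 20 CPM, Adamts1 stood at 141 and 50.1 CPM (1.49, 1.32 to 1.66) and Adamts9 at 13.5 and 21.7 CPM (-0.69, -1.06 to -0.32). Msn, which encodes moesin and links CD44 to the actin cortex, stood at 72.2 and 29.3 CPM (1.30, 1.08 to 1.53). Sdc3, a syndecan, was at 64.7 and 41.0 CPM (0.66), and Itgav, an integrin subunit that can bind tenascin-C, at 207 and 128 CPM (0.70). Csgalnact1, which starts chondroitin sulfate chains, was at 70.0 and 105 CPM (-0.58, -0.74 to -0.42), at the threshold.

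Other parts of the pathway showed no call in frontal cortex. Of 6 genes of UDP-sugar supply and 3 chondroitin sulfotransferase and sulfate genes at 20 CPM, 0 passed the threshold. None of the 6 other synthase, link protein and aggrecan genes reached 20 CPM. In midbrain, of 40 pathway genes at 20 CPM, Adamts1 alone passed, at 29.9 and 19.1 CPM (log2 ratio 0.65, 0.42 to 0.87), where 0.834% of all genes were higher and 0.608% lower, and 1 gene of 40 says little about the list. Between regions in wildtype, 4 of 40 were higher in midbrain and 5 lower, where 6.59% of all genes were higher and 7.16% lower, so these counts are not far from the general share. Itih3 was at 842 CPM in midbrain and 122 CPM in frontal cortex (2.79), and Ezr, which encodes the CD44-linking protein ezrin, was at 66.4 and 307 CPM (-2.21). Adamts1 (-1.39), Gpc6 (-0.93), Ugp2 (-0.86) and Msn (-0.77) were lower in midbrain, while Sdc3 (1.49), Cntn1 (1.16), a partner of Tnr on neurons, and Mmp14 (0.89), a protease that can cut CD44, were higher. In transgenic, 5 of 42 were higher in midbrain and 9 lower, where 8.58% of all genes were higher and 8.78% lower. Among them were Itih3 (1.98), Ezr (-2.65), Adamts1 (-2.23), Msn (-2.03) and Ptx3 (-1.97).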

How the data were processed

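Cells of frontal cortex and midbrain were profiled with a droplet 3′ kit that counts unique molecular identifiers (UMIs). The authors deposited 1 matrix of UMI counts per region, with a cell table giving library, cluster and cell type label, and reads were processed with Cell Ranger 3.0.0, Seurat 3.1.5 and mm10, per the submitters' processing notes. The deposited cell table gives the percent of UMIs from mitochondrial genes per cell, computed by the authors as the file headers name it. How cells were filtered before deposit, and how doublets were treated, is not given in the sources used here, and no doublet caller was run.

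Here, counts were summed per library and label or cluster and scaled to CPM. Ratios carry exact Clopper-Pearson intervals conditional on the summed count, levels exact Poisson intervals, shares exact binomial intervals. A count of 0 was set to a floor of 3 UMIs over the group. With 1 library per group no test across genes was made, and the call rule is one of size (log2 ratio 0.58, 20 CPM). Named were all 9 members, and of each pathway list at most 4 genes past the threshold with 100 UMIs. The genes most like Vcan are not reported here. The members and lists were chosen with earlier results of these data known. Ratios were tested on simulated counts. Thinning to 3000 UMIs left 635 transgenic and 867 wildtype astrocytes in frontal cortex and 1201 and 2209 in midbrain. Alternatives used the scaling factors of edgeR 4.0.16 and DESeq2 1.42.0 in R 4.3.3. The rest was done in Python 3.11.15 with numpy 2.4.6, scipy 1.17.1 and pandas 2.3.3, and figures were drawn with matplotlib 3.10.9.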

Additional observations from a re-analysis of the deposited data

Results flagged for a closer look

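Of 31 pairs of gene and label, 6, all outside astrocytes, had genotype ratios of opposite sign in the 2 regions with both counting intervals leaving out 0. Each region and genotype is 1 library, and none of these differences was tested.

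Of these, 4 concern genes with high levels in astrocytes, read at low levels in microglia or pericytes. Bcan in microglia (MG) was 21.1 CPM in transgenic and 13.5 CPM in wildtype frontal cortex and 21.1 and 57.3 CPM in midbrain, so the log2 ratios of 0.65 and -1.44 were 2.09 apart. Bcan in pericytes (PC) was 59.1 and 17.5 CPM in frontal cortex and 16.5 and 47.6 CPM in midbrain, and the ratios were 3.28 apart. Cspg5 in MG was 21.9 and 9.98 CPM, then 9.72 and 27.9 CPM, with ratios 2.66 apart. Ncan in MG was 10.4 and 3.51 CPM, then 5.09 and 8.23 CPM, with ratios 2.26 apart. All of these levels were far under those of astrocytes in the same libraries. Few cells held much of some counts. In PC, 1 cell held 17 of 39 Bcan UMIs in transgenic frontal cortex and 1 held 18 of 58 in wildtype midbrain. In wildtype midbrain MG, 10 of 1158 cells held 142 of 439 Bcan UMIs, and 10 held 97 of 214 Cspg5 UMIs. Counting intervals do not cover such unevenness between cells.

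The other 2 concern Tnr. In smooth muscle cells (SMC) it was higher in the transgenic library of frontal cortex (log2 ratio 0.81) and lower in that of midbrain (-0.88), 1.68 apart. In mNeur cells the levels were 89.4 and 39.2 CPM in frontal cortex and 2.89 and 30.5 CPM in midbrain, and the ratios were 4.59 apart. The mNeur label held the highest level of 12 of 12 neuronal markers in midbrain and of 9 of 12 in frontal cortex. It also held the highest level of 5 of 6 neuroblast markers in midbrain, while in frontal cortex imNeur cells led all 6. Summed neuroblast markers in mNeur cells were 3301 and 4054 CPM in midbrain and 639 and 718 CPM in frontal cortex. The marker make-up of this label thus differed between regions. In midbrain mNeur cells progenitor markers summed to 11.5 CPM in transgenic and 104 CPM in wildtype, and microglial markers to 6760 and 864 CPM, and their part in the Tnr ratio was not tested.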

How the results depend on the processing

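No paired analysis was possible because each region and genotype is 1 library. Over pairs of result and alternative, 119 held and 27 moved for the main summaries, and 261 held, 106 moved and 1 was counted as reversed for single member ratios. That count does not cover every change of sign. For example, the wildtype Cd44 region ratio kept its sign in 10 of 11 alternatives and both Tnc region ratios in 11 of 12. The frontal cortex genotype ratio of Vcan also kept its sign in 11 of 12. The cause was not tested. The alternatives without clusters were chosen after seeing the data. The frontal cortex Cd44 log2 ratio (4.05) was 4.70 in thinned cells, 4.65 in cells under 5% mitochondrial UMIs, 3.49 with clusters weighted alike, 3.51 in astrocytes with under 4 UMIs of other types' markers and 2.80 without cluster 11, and it kept its direction in 12 of 12 alternatives. The midbrain Cd44 ratio (2.57) was 1.91 under 5% mitochondrial UMIs, 3.59 with clusters weighted alike, 5.09 in astrocytes low in other markers, 3.28 without shallow clusters and 0.18 without clusters 10 and 22. The limit on other markers, which shallow cells meet more easily, kept 314 transgenic and 514 wildtype midbrain astrocytes. The Cd44 region ratio in transgenic (-2.26) reversed to 0.48 with clusters weighted alike.

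In frontal cortex 2 members were higher, and 1 lower, with clusters weighted alike (Cd44 and Vcan, Tnc), in astrocytes low in other markers (Cd44 and Ncan, Vcan) and with no filter on low genes (Cd44 and Has2, Tnc). In midbrain the 1 lower member, Hapln1, became 0 by the mean of per-cell CPM, in thinned cells, with clusters weighted alike, at 50 CPM, at a threshold of 2 times and without clusters 10 and 22, and 2 (Hapln1 and Tnc) with no filter. Members higher in transgenic than in wildtype midbrain astrocytes were 2 (Cd44 and Ncan) with clusters weighted alike, 1 (Cd44) in astrocytes low in other markers and 1 (Cd44) with no filter. Between regions in transgenic, 3 members (Hapln1, Vcan and Cspg5) were lower in midbrain than in frontal cortex astrocytes with clusters weighted alike. Depth limits Has2, Tnc and Tnr in astrocytes, which have at most 130 UMIs in any library.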
